A study of Homo sapiens with 12 samples.

Results

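The 38 genes described here carry out the step from G1 into S phase and the copying of DNA. They were taken by symbol, as the rows of the count table with one of 38 listed names, and all 38 were found, once each, among 60664 genes. The list was drawn up with earlier results of these data known. They fall into 7 roles: origin licensing (10 genes), helicase activation (6), DNA polymerases and primase (5), the sliding clamp and its loader (5), nucleotide supply (4), G1/S regulators (4), and chromatin assembly with histone mRNA (4). RNA was sequenced from MDA-MB-231 cells, an established human line from a triple-negative breast cancer, in 3 groups of 4 libraries. The first group was wildtype (WT) cells in normoxia (0 hr of hypoxia) and the second was WT cells after 24 hr of hypoxia. The third was CCAR2 knockout (KO) cells in normoxia, made with CRISPR and a guide against CCAR2, the gene of DBC1, a nuclear protein known to bind and inhibit the deacetylase SIRT1. Whether the KO line was 1 clone or a pool was not given in the sources used here, and no KO cells were sequenced under hypoxia. The study's methods call the replicates biological, but give another number of them than the 4 libraries per group, and the labels do not say whether these came from separate cultures, so the p-values measure the spread between these libraries, which may be technical.

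Replication starts in G1, when the origin recognition complex, CDC6 and CDT1 load the ring-shaped MCM2-7 helicase onto DNA. Cyclin E with CDK2 then drives entry into S phase, while E2F transcription factors, freed from RB, switch on the genes of replication and of nucleotide synthesis. CDC45 and GINS join MCM2-7 to form the active helicase, primase with polymerase alpha lays down primers, and PCNA, loaded by replication factor C, holds the main polymerases on the DNA. Most of these transcripts peak around the G1/S boundary in cycling cells and have been used as markers of proliferation in breast tumors.

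The promoters are shown first because many of these genes are textbook targets of E2F, and the letters of its site can be read in them. RefSeq promoters (GRCh38.p14, 250 bases before to 50 after each gene start) were matched by symbol for 34 of the 38 genes. MCM4, MCM5, GINS4 and CCNE2 had no entry. Here the gene start is that of the promoter set, which can differ from the GENCODE 29 genes whose coordinates are used below. Of the windows printed, those of CDT1, GINS2, RFC3, MCM7, POLA2, RRM2 and SLBP lie wholly inside the GENCODE genes. The other windows, except that of MCM6, overlap them in part. The E2F letters searched on both strands were TTTCCCGC, TTTCGCGC, TTTGCCGC and TTTGGCGC. They were found in 19 of the 34 promoters (55.9%), against 3.33% of all 27305 promoters of that length. Of the 26 matches, 13 had their centre within the 50 bases before the gene start, while 19.4% of the matches in all promoters did. Other spellings of the site were not searched. Below are the 100 bases before the gene start on the strand of the gene, with E2F letters in capitals, for 10 genes that carry a match there and on which the results turn.
CDT1 (chr16:88803689-88803788, plus strand): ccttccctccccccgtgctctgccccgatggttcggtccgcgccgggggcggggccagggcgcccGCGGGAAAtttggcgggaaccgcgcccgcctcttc
E2F1 (chr20:33686386-33686485, minus strand): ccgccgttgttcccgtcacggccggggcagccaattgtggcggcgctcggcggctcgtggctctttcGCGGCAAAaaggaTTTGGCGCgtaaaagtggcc
POLE (chr12:132687343-132687442, minus strand): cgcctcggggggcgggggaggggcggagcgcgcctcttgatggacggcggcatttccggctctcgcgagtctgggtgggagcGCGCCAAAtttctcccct
GINS2 (chr16:85688955-85689054, minus strand): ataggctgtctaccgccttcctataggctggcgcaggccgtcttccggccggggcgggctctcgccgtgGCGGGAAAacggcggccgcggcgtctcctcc
TYMS (chr18:657553-657652, plus strand): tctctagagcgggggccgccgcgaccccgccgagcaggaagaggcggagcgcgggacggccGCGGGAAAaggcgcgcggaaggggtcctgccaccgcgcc
RFC3 (chr13:33818049-33818148, plus strand): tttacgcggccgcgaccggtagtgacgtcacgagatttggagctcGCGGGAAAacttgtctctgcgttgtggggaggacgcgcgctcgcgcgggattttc
PCNA (chr20:5126623-5126722, minus strand): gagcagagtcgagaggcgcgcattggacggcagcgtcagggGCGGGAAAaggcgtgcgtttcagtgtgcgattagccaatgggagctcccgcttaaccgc
MCM6 (chr2:135876444-135876543, minus strand): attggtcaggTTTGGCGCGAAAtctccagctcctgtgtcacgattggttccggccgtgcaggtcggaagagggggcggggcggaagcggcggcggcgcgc
MCM7 (chr7:100101398-100101497, minus strand): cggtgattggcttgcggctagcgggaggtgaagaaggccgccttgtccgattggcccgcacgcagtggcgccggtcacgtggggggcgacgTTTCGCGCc
POLA2 (chr11:65261862-65261961, plus strand): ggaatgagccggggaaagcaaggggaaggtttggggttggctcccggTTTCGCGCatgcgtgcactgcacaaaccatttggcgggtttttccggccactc
In MCM6 the run in capitals holds TTTGGCGC on the strand of the gene and TTTCGCGC on the other strand, which overlap, and E2F1 holds a separate pair of matches. GCGGGAAA in CDT1, GINS2, TYMS, RFC3 and PCNA is TTTCCCGC read from the other strand.

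The same 100 bases are shown for 5 genes with no match in the whole promoter window, which include PRIM1, RRM2, TK1 and SLBP, among the largest decreases in the KO, and ORC1, the largest decrease of the 38 under hypoxia.
RRM2 (chr2:10122639-10122738, plus strand): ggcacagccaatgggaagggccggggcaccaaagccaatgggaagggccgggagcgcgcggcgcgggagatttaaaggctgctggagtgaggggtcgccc
TK1 (chr17:78187205-78187304, minus strand): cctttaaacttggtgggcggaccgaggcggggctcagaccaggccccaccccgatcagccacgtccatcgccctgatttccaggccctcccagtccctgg
PRIM1 (chr12:56752324-56752423, minus strand): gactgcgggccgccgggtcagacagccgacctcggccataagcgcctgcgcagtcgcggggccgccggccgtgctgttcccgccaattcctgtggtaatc
SLBP (chr4:1712320-1712419, minus strand): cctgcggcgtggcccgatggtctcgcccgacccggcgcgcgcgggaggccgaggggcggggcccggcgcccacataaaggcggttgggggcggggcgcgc
ORC1 (chr1:52404424-52404523, minus strand): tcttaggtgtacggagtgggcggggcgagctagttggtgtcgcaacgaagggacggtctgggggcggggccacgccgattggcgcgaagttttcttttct
The CCAAT box (CCAAT, both strands) was in 20 of the 34 promoters (58.8%, against 35.7% of all), and CHR letters (TTTGAA or TTTAAA, both strands), which are found in many G2/M genes, were in 4 (11.8%, against 24.3% of all). The core letters of the hypoxia response element (ACGTG or GCGTG, both strands) were in 24 promoters (70.6%, against 48.4% of all). These shares are descriptions of letters in a window and say nothing of binding.

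All 38 genes were well above the filter on low counts and were tested in every comparison. Counts of the 38 genes ran from 205 (E2F2) to 75583 (TYMS) in single libraries. The deposited values summed to between 153904088 and 213743693 per library in normoxia, 76384973 and 195621872 under hypoxia and 68599412 and 152328450 in the KO, and hypoxia replicate 2 stood farthest from the other libraries of its group. CCAR2 itself was at 146 ± 3.11 CPM (counts scaled to the size of the library; SD, n = 4) in WT normoxia and 57.8 ± 2.81 CPM in the KO, a log2 fold change of -1.34 (SE 0.04, adjusted p = 2.1e-09), with no overlap of the groups (two-sided exact permutation p = 0.0286, the smallest that 4 libraries against 4 allow). Under hypoxia CCAR2 mRNA was at 149 ± 4.95 CPM (adjusted p = 0.802). The hypoxia target CA9 went from between 0.0389 and 0.0948 CPM in normoxia to between 4.43 and 5.40 CPM after 24 hr, and 12 of 12 hypoxia targets were higher. VIM, CD44 and 5 other markers of MDA-MB-231 cells summed to between 8710 and 8961 CPM in normoxia. Their sums were between 7953 and 8635 CPM under hypoxia and between 8262 and 8810 CPM in the KO. Under hypoxia their log2 fold changes ran from -0.52 (ZEB1) to 0.08 (AXL). Luminal breast markers summed to between 95.6 and 103 CPM in normoxia, 99.8 and 114 under hypoxia and 99.1 and 103 in the KO. Leukocyte markers summed to at most 1.47 CPM, and CD3E averaged at most 0.016 CPM in any group. Fibroblast markers summed to between 14.2 and 16.1 CPM in normoxia and between 20.2 and 23.5 CPM in the KO, nearly all of it COL1A1, while COL1A2, DCN and LUM averaged at most 0.085 CPM.

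Taken per length, the 38 genes differed widely in WT normoxia. TYMS (thymidylate synthase), TK1 (thymidine kinase) and PCNA were highest, at 214, 151 and 133 CPM per kilobase of the principal transcript, and E2F2 was lowest at 0.62 CPM per kilobase. Within the MCM2-7 ring, whose 6 subunits assemble in equal numbers, the levels per kilobase fell in the order MCM7, MCM3, MCM4, MCM2, MCM5 and MCM6 in each of the 3 groups, from 100.4 ± 4.23 to 21.3 ± 0.768 CPM per kilobase in normoxia (SD, n = 4), with no overlap between neighbours in any group. In GINS, a complex of 4 subunits, GINS1 and GINS4 overlapped in normoxia and GINS3 was lowest at 6.48 CPM per kilobase. RRM1 and RRM2, the large and small subunits of ribonucleotide reductase, stood at 73.3 and 70.7 CPM per kilobase. PRIM1, the catalytic subunit of primase, stood at 17.7 CPM per kilobase, above POLA1 (7.17) and POLA2 (2.91), the catalytic and second subunits of polymerase alpha. These levels and orders depend on the transcript taken as the length. Per kilobase of all exons, MCM3 averaged above MCM7, MCM2 above MCM4 and MCM6 above MCM5 in each of the 3 groups. In normoxia RRM1 and RRM2 then averaged 54.0 and 45.6 CPM per kilobase, and GINS1 and GINS4 averaged 13.5 and 10.9.

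**Figure D1:**
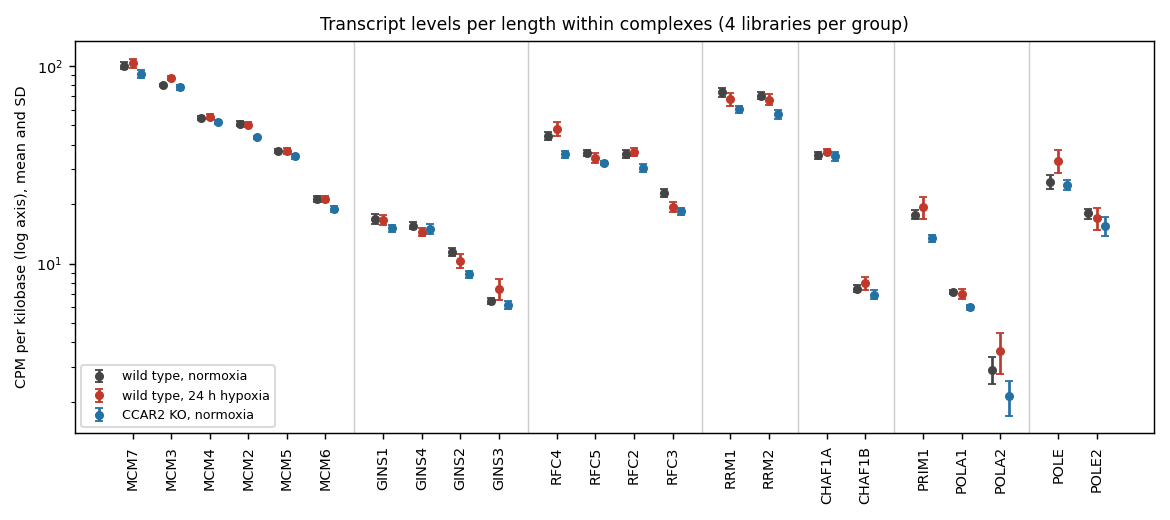
Mean CPM per kilobase of the principal transcript (log axis) with the SD over 4 libraries, for genes of 7 complexes in WT normoxia, WT hypoxia and CCAR2 KO cells. On this length the order MCM7, MCM3, MCM4, MCM2, MCM5, MCM6 is the same in the 3 groups. It is another order per kilobase of all exons.

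The spread between libraries was small for most of the genes. The median coefficient of variation over the 38 genes was 4.41% in normoxia, 6.14% under hypoxia and 4.10% in the KO, and POLA2 had the highest in each group, at 15.4%, 23.7% and 20.1%. Hypoxia replicate 2 was the highest of its group for 21 of the 38 genes.

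**Figure D2:**
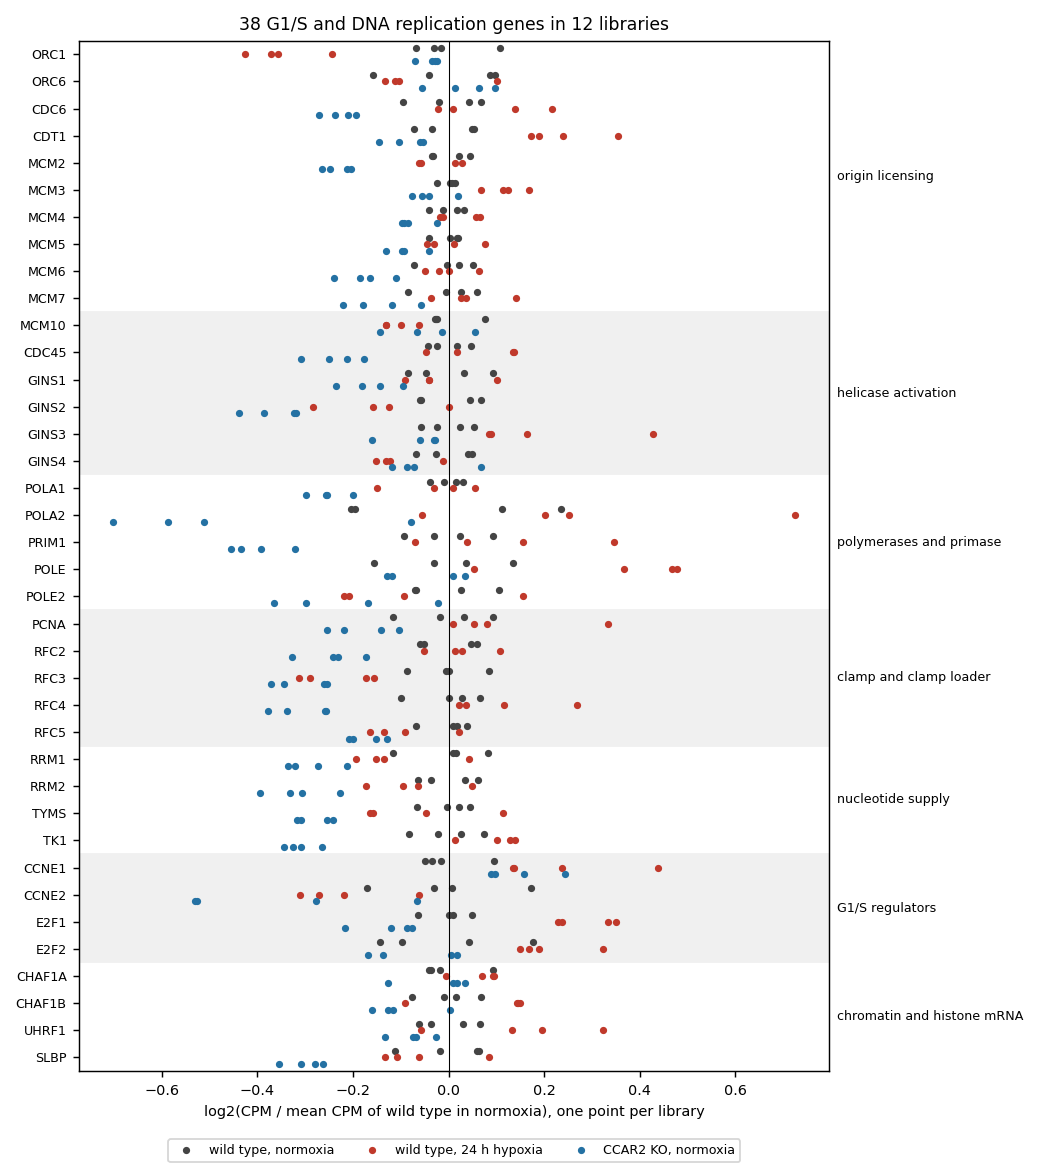
Each point is 1 library, as the log2 ratio of its CPM to the mean of WT normoxia, for 38 genes ordered by role. KO libraries lie to the left of WT normoxia for most genes of nucleotide supply and of the clamp loader, while hypoxia libraries lie on both sides; POLA2 is the most scattered.

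After 24 hr of hypoxia the 38 genes moved little and in both directions. None was called, that is, had an adjusted p under 0.05 together with a log2 fold change of 0.5 or more in size, while 7.26% of 21776 genes tested were (5.83% higher and 1.43% lower). At the adjusted p alone, CDT1, E2F1 and POLE were higher and ORC1 and RFC3 were lower, so 3 of 38 rose and 2 fell, 5 in all, against 23.5% of all genes in either direction. The median log2 fold change was 0.02 over the 38 genes and 0.01 over all genes, with 20 above and 18 below zero. Before adjustment, p was under 0.05 for 6 of the 38 that were higher and 5 that were lower, against 3721 and 3958 of the 21776 genes. Of the 5 genes that rose or fell, only ORC1 was also past the adjusted p in each of the 11 alternatives and with each library left out. CDT1, E2F1, POLE and RFC3 were not past it once a trend of each library's counts with GC content was removed. The libraries of a group are of bulk cells, so a change in the share of cells in S phase and a change of RNA per cell cannot be told apart in any of these comparisons.

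ORC1, the largest subunit of the origin recognition complex (chr1:52372829-52404459 on GRCh38), was at 23.6, 21.7, 20.9 and 21.5 CPM in the 4 normoxia libraries, 16.3, 16.96, 17.1 and 18.5 CPM under hypoxia and 21.5, 21.5, 21.4 and 20.9 CPM in the KO. Every hypoxia library was below every other library, and KO and normoxia overlapped. Its log2 fold change was -0.35 (SE 0.06, adjusted p = 0.00230) under hypoxia, and -0.38 (adjusted p = 0.00131) with the GC trend removed. CDT1, which brings MCM2-7 to the origin, was at 74.4, 79.03, 78.8 and 72.5 CPM in normoxia and 85.8, 97.4, 86.8 and 89.95 CPM under hypoxia, with no overlap. Its log2 fold change was 0.23 (SE 0.06, adjusted p = 0.0115), but with the GC trend removed it was 0.02 (adjusted p = 0.901); its gene model has the highest GC content of the 38, 65.8%. The other licensing genes did not pass: ORC6, CDC6 and MCM2 to MCM7 had log2 fold changes between -0.07 (ORC6) and 0.11 (MCM3, adjusted p = 0.0889). MCM3 was at 256 ± 2.82 CPM in normoxia and 278 ± 7.85 CPM under hypoxia, with no overlap.

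Among the helicase genes none passed under hypoxia. GINS3 had the highest log2 fold change, 0.19 (SE 0.08, adjusted p = 0.130), with 15.3, 15.00, 14.5 and 14.2 CPM in normoxia and 15.6, 19.8, 16.5 and 15.7 CPM under hypoxia, where replicate 2 stood above the rest. GINS2 had the lowest, -0.15 (SE 0.07, adjusted p = 0.142). It was at 29.3, 31.9, 31.4 and 29.2 CPM in normoxia, 25.03, 30.5, 27.3 and 27.9 CPM under hypoxia and 23.3, 24.3, 24.4 and 22.5 CPM in the KO. The hypoxia libraries of GINS2 lay between those of the other groups and overlapped normoxia.

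POLE, the catalytic subunit of the leading-strand polymerase epsilon (chr12:132623753-132687365), had the highest log2 fold change of the 38 under hypoxia, 0.34 (SE 0.09, adjusted p = 0.0205). It was at 223, 182, 199 and 209 CPM in normoxia, 262, 211, 281 and 283 CPM under hypoxia and 187, 186, 208 and 205 CPM in the KO. Hypoxia replicate 2 lay within the normoxia range and the other 3 above it. The call of POLE was not past the adjusted p without normoxia replicate 2 or 3 or hypoxia replicate 3 or 4 (adjusted p up to 0.0677), nor with the GC trend removed (log2 fold change 0.25, adjusted p = 0.0646). POLE2, the second subunit of the same polymerase, was at 34.2, 32.4, 30.3 and 30.4 CPM in normoxia and 29.8, 35.5, 27.4 and 27.6 CPM under hypoxia, with a log2 fold change of -0.09 (SE 0.09, adjusted p = 0.502).

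RFC3, a subunit of the clamp loader (chr13:33818049-33966558), was at 57.9, 54.6, 54.4 and 51.4 CPM in normoxia and 48.99, 48.4, 44.6 and 43.9 CPM under hypoxia, with no overlap and a log2 fold change of -0.24 (SE 0.06, adjusted p = 0.0121). With the GC trend removed it was -0.11 (adjusted p = 0.0905), and its GC content, 42.1%, is among the lower of the 38. PCNA, the clamp, was at 178, 192, 185 and 166 CPM in normoxia and 187, 228, 182 and 191 CPM under hypoxia. Its groups overlapped, and the log2 fold change was 0.12 (SE 0.08, adjusted p = 0.305).

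None of the 4 nucleotide genes passed under hypoxia. RRM1 was lowest, at 239, 228, 227 and 208 CPM in normoxia and 205, 232, 197 and 203 CPM under hypoxia (log2 fold change -0.11, SE 0.06, adjusted p = 0.233). TK1 was highest, at 232, 258, 250.03 and 242 CPM and 248, 270.4, 263 and 268 CPM (log2 fold change 0.09, SE 0.05, adjusted p = 0.254). Both overlapped.

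E2F1, the transcription factor (chr20:33675683-33686404), was at 86.7, 93.7, 91.2 and 90.6 CPM in normoxia, 106, 107, 114 and 115 CPM under hypoxia and 77.9, 85.8, 85.3 and 83.2 CPM in the KO. All hypoxia libraries were above all others and all KO libraries were below all others. Its log2 fold change under hypoxia was 0.28 (SE 0.05, adjusted p = 0.00228), and 0.09 (adjusted p = 0.106) with the GC trend removed, at a GC content of 62.5%. The cyclins of CDK2 had opposite signs and neither passed: CCNE1 had a log2 fold change of 0.23 (SE 0.08, adjusted p = 0.0634) and CCNE2 of -0.22 (SE 0.08, adjusted p = 0.0735). CCNE1 was at 12.03, 13.2, 12.2 and 11.9 CPM in normoxia and 13.5, 16.7, 13.5 and 14.5 CPM under hypoxia, with no overlap, and CCNE2 at 28.7, 26.03, 32.99 and 29.4 CPM and 28.1, 25.2, 23.6 and 24.3 CPM, with an overlap. CCNE1 was past the adjusted p in 7 of the 11 alternatives (down to 0.0218). CCNE2 was past it with DESeq2 (0.0427), and without normoxia replicate 2 or hypoxia replicate 1 (down to 0.0424). E2F2 went from 3.23 ± 0.330 CPM to 3.74 ± 0.208 CPM (adjusted p = 0.225).

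Of the chromatin genes, UHRF1, which recognises hemimethylated DNA behind the fork, had the highest log2 fold change under hypoxia, 0.15 (SE 0.07, adjusted p = 0.188). It was at 214, 218, 228 and 234 CPM in normoxia and 256, 214, 279 and 245 CPM under hypoxia, with hypoxia replicate 2 the lowest of its group. SLBP, which binds the stem-loop of histone mRNAs, was at 155, 164, 164 and 145 CPM and 143, 166, 150.3 and 146 CPM, and its log2 fold change was -0.06 (SE 0.06, adjusted p = 0.553). CHAF1A and CHAF1B, subunits of the CAF-1 histone chaperone, had log2 fold changes of 0.06 and 0.08, neither of which passed.

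The count of decreases under hypoxia depended on 1 library. Without hypoxia replicate 2, 8 of the 38 genes fell and 4 rose at the adjusted p alone: GINS2, GINS4, POLE2, RFC5, RRM1 and TYMS were then also lower, with adjusted p between 0.0221 and 0.0475, and UHRF1 was higher, at 0.0186. With the GC trend removed, 4 were lower (ORC1, MCM2, MCM5 and GINS2) and 2 were higher (PRIM1 and RFC4). The median was 0.01 with the GC trend removed and -0.0010 without hypoxia replicate 2, where those of all genes were -0.0037 and 0.012. The shares of all genes that fell or rose in these refits are not given here. Whether the added genes are particular to the 38 was therefore not tested.

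**Figure D3:**
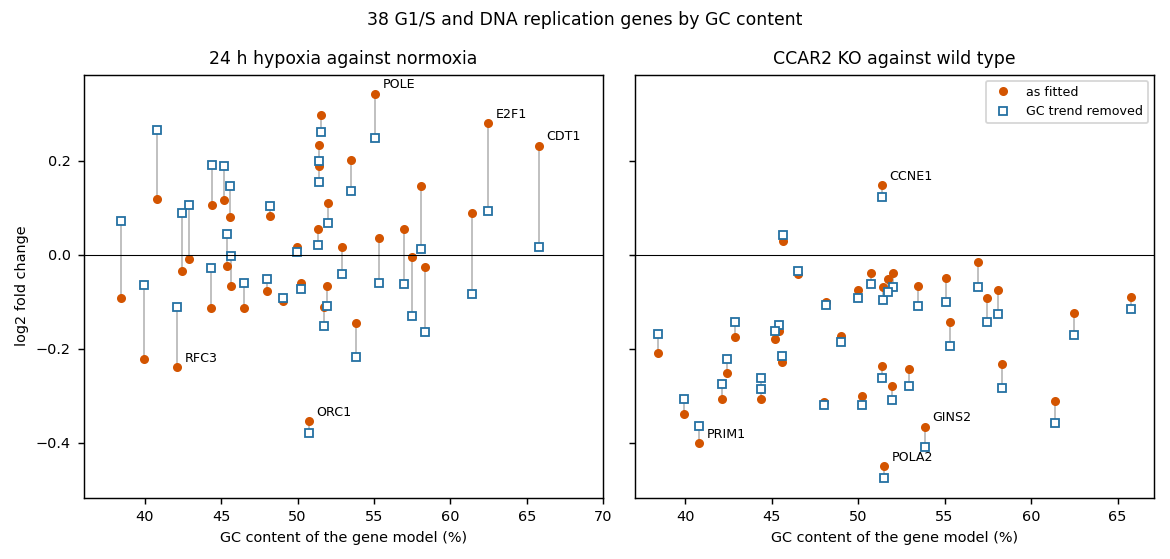
Log2 fold change of the 38 genes against the GC content of the gene model, as fitted (circles) and with the GC trend of each library removed (squares), under hypoxia and in the KO. Under hypoxia the removal moved single genes by up to 0.22, and in the KO by up to 0.05.

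In CCAR2 KO cells 22 of the 38 genes fell and none rose, and the size of the log2 fold change was under 0.5 in each. None was therefore called, while 9.67% of 21410 genes tested were (6.73% higher and 2.94% lower). The 22 that fell at the adjusted p alone are 57.9% of the 38, against 15.4% of all genes, and 0 rose, against 14.9%. At an unadjusted p under 0.05 edgeR found 1 of the 38 higher, CCNE1, against 4193 of the 21410 genes. Neither DESeq2 nor limma-voom found any of the 38 higher at the adjusted p. The median log2 fold change was -0.17 over the 38 genes and 0.01 over all genes; 36 were below zero, and ORC6 and CCNE1 were above it. In 19 of the 38 every KO library was below every WT normoxia library, against 15.2% of all genes, and in 0 was every KO library above, against 15.6%. The sum over the 38 genes went from 4167 ± 64.6 CPM to 3688 ± 11.1 CPM (SD, n = 4), with ranges of 4078 to 4219 and 3674 to 3697.

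**Figure D4:**
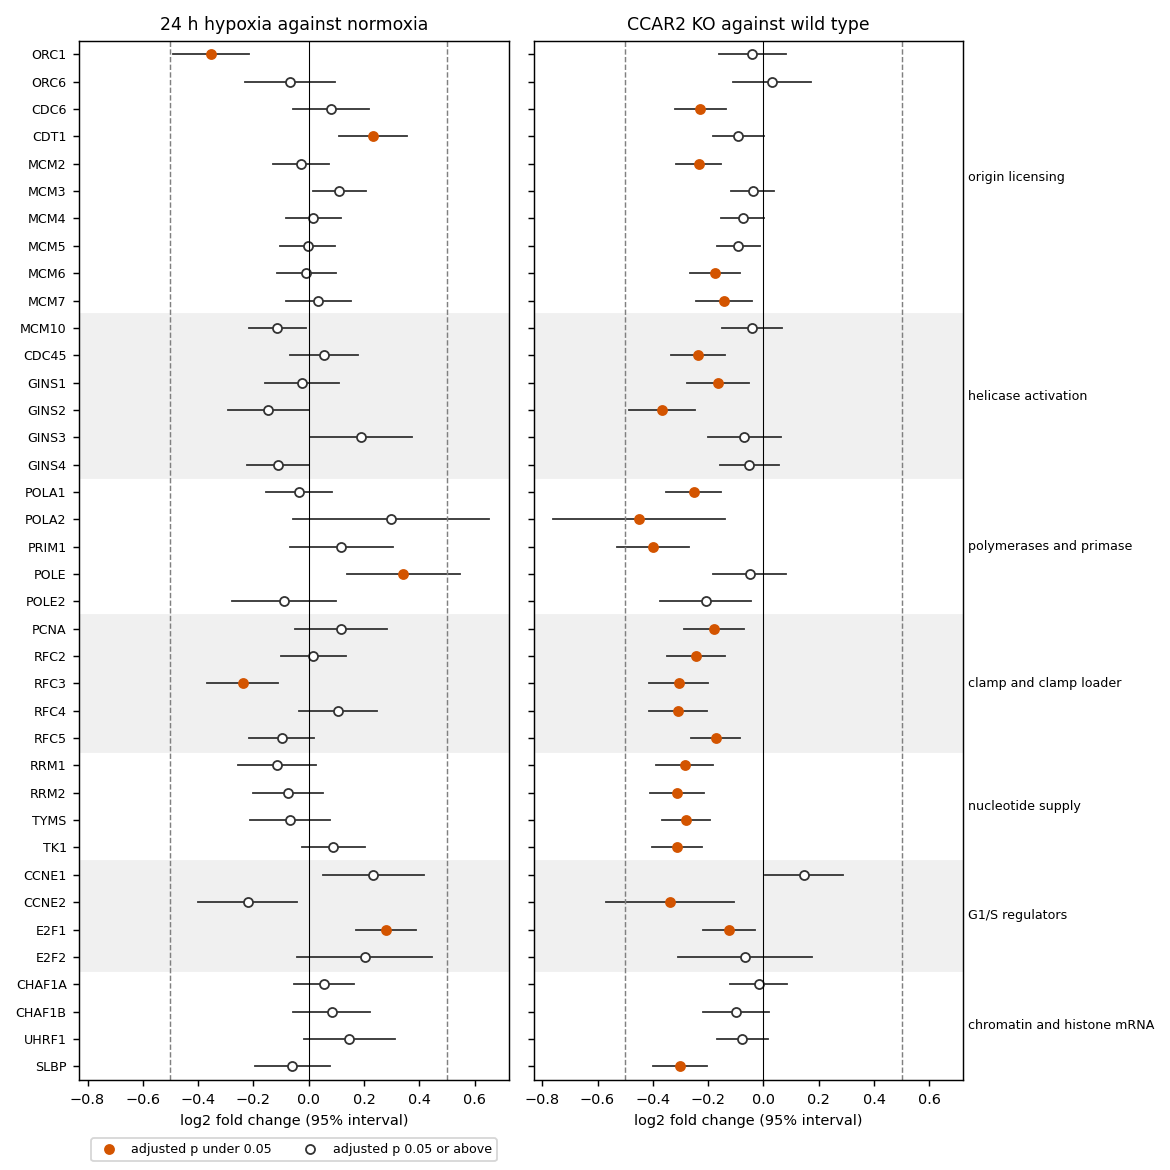
Log2 fold change of each gene with its 95% interval under hypoxia and in the KO; filled points have an adjusted p under 0.05 and the dashed lines mark an absolute log2 fold change of 0.5. In the KO 22 genes are filled, all to the left of zero, and under hypoxia 5 are, on both sides.

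The share that fell differed from role to role. All 4 genes of nucleotide supply and all 5 of the clamp and its loader fell, 3 of 5 polymerase and primase genes, 3 of 6 helicase genes, 4 of 10 licensing genes, 2 of 4 G1/S regulators and 1 of 4 chromatin genes. The median log2 fold change was lowest for nucleotide supply (-0.30), followed by polymerases and primase (-0.25) and the clamp group (-0.24), and was between -0.09 and -0.12 for the other 4 roles. The difference between roles was not tested. Of the 22, 16 were past the adjusted p under all 11 alternatives and with any single library left out: CDC6, MCM2, MCM6, CDC45, GINS2, POLA1, PRIM1, RFC2, RFC3, RFC4, RFC5, RRM1, RRM2, TYMS, TK1 and SLBP.

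The 4 nucleotide genes fell by like amounts. RRM2, the small subunit of ribonucleotide reductase (chr2:10120698-10131419), was at 253, 248, 237 and 232 CPM in normoxia and 207, 193, 185 and 196 CPM in the KO. TYMS, which makes thymidylate (chr18:657604-673578), was at 355, 368, 362 and 341 CPM and 286, 302, 288 and 299 CPM. TK1, the salvage enzyme for thymidine (chr17:78174075-78187233), was at 232, 258, 250.03 and 242 CPM and 193, 198, 204 and 196 CPM. In each of these genes the highest KO library was below the lowest normoxia library. The log2 fold changes were -0.31 (SE 0.04, adjusted p = 0.000219) for RRM2, -0.28 (SE 0.04, adjusted p = 0.000187) for TYMS and -0.31 (SE 0.04, adjusted p = 0.000130) for TK1. RRM1 was at 195, 187, 179 and 181 CPM in the KO and fell by 17.9%, with a log2 fold change of -0.28 (SE 0.05, adjusted p = 0.000622). In the annotation 39.1% of the exon length of TYMS lies opposite ENOSF1, whose log2 fold change was -0.17 (adjusted p = 0.0378), and whether counting used strand was not given in the sources used here.

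In the clamp group, RFC4 had the lowest log2 fold change and RFC5 the highest. RFC4 was at 64.2, 67.1, 65.4 and 59.8 CPM in normoxia, 65.7, 77.3, 65.1 and 69.4 CPM under hypoxia and 53.7, 53.6, 49.3 and 50.7 CPM in the KO. RFC5 was at 60.9, 60.5, 61.8 and 57.4 CPM, 54.8, 61.1, 53.7 and 56.4 CPM and 54.1, 52.3, 52.1 and 55.03 CPM. KO and normoxia did not overlap in either. The log2 fold changes were -0.31 (SE 0.05, adjusted p = 0.000400) for RFC4 and -0.17 (SE 0.04, adjusted p = 0.00655) for RFC5, and RFC3 (-0.31, adjusted p = 0.000466) and RFC2 (-0.24, adjusted p = 0.00208) lay between them. RFC3 was at 45.8, 45.5, 42.99 and 42.2 CPM in the KO. PCNA was at 168, 164, 155 and 151 CPM in the KO, which overlapped normoxia, with a log2 fold change of -0.18 (SE 0.05, adjusted p = 0.0177); without KO replicate 4 its adjusted p was 0.0579.

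Primase and polymerase alpha work as one enzyme, and the 3 of its genes among the 38 fell, as did the other primase subunit, PRIM2, from 49.2 ± 0.503 CPM to 38.8 ± 2.24 CPM (log2 fold change -0.34, adjusted p = 0.000248). PRIM1 (chr12:56731596-56752373) was at 25.1, 24.1, 26.3 and 23.1 CPM in normoxia, 23.5, 31.4, 25.3 and 27.4 CPM under hypoxia and 19.7, 18.8, 17.98 and 18.3 CPM in the KO, and the highest KO library was below the lowest of both WT groups. It fell by 24.2%, with a log2 fold change of -0.40 (SE 0.06, adjusted p = 0.000295). POLA1 went from 39.3 ± 0.818 CPM to 33.03 ± 0.936 CPM, with no overlap (log2 fold change -0.25, SE 0.05, adjusted p = 0.00111). POLA2 (chr11:65261762-65305589) was at 9.52, 9.46, 12.8 and 11.8 CPM in normoxia, 18.03, 12.98, 10.5 and 12.5 CPM under hypoxia and 6.71, 7.26, 7.65 and 10.3 CPM in the KO. KO replicate 4 overlapped normoxia, and the log2 fold change was -0.45 (SE 0.14, adjusted p = 0.0306), the lowest of the 38 and the least precise. POLA2 was not past the adjusted p without normoxia replicate 3 or 4 or KO replicate 1, 2 or 3 (adjusted p up to 0.0896), and passed the fold of 0.5 as well without normoxia replicate 1 or 2 or KO replicate 4. Of its exon length, 35.1% is shared on the same strand with a gene listed by identifier alone (ENSG00000285816), which stood at 22.2 ± 5.01 CPM in normoxia and 27.1 ± 4.86 CPM in the KO. The sum of both was 33.1 ± 3.50 CPM in normoxia and 35.1 ± 3.80 CPM in the KO, so the decrease of POLA2 was not seen in the sum, and how reads were divided between them was not tested.

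The 2 subunits of polymerase epsilon among the 38 genes did not pass, while the other subunits fell: POLE3 had a log2 fold change of -0.29 (adjusted p = 0.000113) and POLE4 of -0.27 (adjusted p = 0.0301). POLE had a log2 fold change of -0.05 (SE 0.06, adjusted p = 0.597) in the KO. POLE2 had one of -0.21 (SE 0.08, adjusted p = 0.0557), with 28.3, 31.3, 24.7 and 25.9 CPM in the KO, and was past the adjusted p in 8 of the 11 alternatives and without KO replicate 2 (0.00993).

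Of the helicase genes, GINS2 had the lowest log2 fold change in the KO, -0.37 (SE 0.05, adjusted p = 0.000291), and fell by 22.4% with no overlap. CDC45 went from 51.3 ± 1.43 CPM to 43.6 ± 1.69 CPM (log2 fold change -0.24, SE 0.04, adjusted p = 0.00159), also with no overlap. GINS1 went from 54.8 ± 3.03 CPM to 49.00 ± 2.004 CPM (adjusted p = 0.0303), and did not pass without normoxia replicate 2 or 4 or KO replicate 3 or 4 (up to 0.0762). MCM10, which helps to activate the loaded helicase, had the highest log2 fold change of the role, -0.04 (SE 0.05, adjusted p = 0.599). It was at 62.8, 58.4, 58.6 and 58.4 CPM in normoxia, 55.5, 54.4, 57.04 and 54.4 CPM under hypoxia and 61.9, 56.8, 53.9 and 59.00 CPM in the KO, and KO and normoxia overlapped. GINS3 (-0.07) and GINS4 (-0.05) did not pass, so GINS1 and GINS2 passed and the other 2 subunits of the same complex did not; the difference between subunits was not tested.

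In origin licensing, MCM2 had the lowest log2 fold change, -0.23 (SE 0.04, adjusted p = 0.000491). It was at 181, 181, 188 and 191 CPM in normoxia, 178, 177, 187 and 189 CPM under hypoxia and 154, 159.8, 161 and 156 CPM in the KO, and all KO libraries were below all WT libraries. CDC6 went from 123 ± 6.14 CPM to 105 ± 2.42 CPM (log2 fold change -0.23, adjusted p = 0.00140). MCM6 (-0.17, adjusted p = 0.00692) and MCM7 (-0.14, adjusted p = 0.0339) also fell. MCM7 overlapped normoxia and did not pass without normoxia replicate 2, 3 or 4 or KO replicate 1, 2 or 4 (up to 0.0927). MCM3, MCM4 and MCM5, the other subunits of the ring, had log2 fold changes of -0.04, -0.08 and -0.09 and did not pass; MCM5 passed without normoxia replicate 1 (0.0423). The 95% intervals of these 3 reached down to -0.12, -0.15 and -0.17. CDT1 (-0.09, 95% interval -0.18 to 0.0007) and ORC1 (-0.04, -0.16 to 0.08) did not pass. ORC6 was at 29.5, 32.2, 32.5 and 27.2 CPM in normoxia, 28.1, 32.6, 28.3 and 27.7 CPM under hypoxia and 30.7, 32.5, 29.2 and 31.7 CPM in the KO, and its log2 fold change in the KO was 0.03 (SE 0.06, adjusted p = 0.780).

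Of the G1/S regulators, CCNE2 had the lowest log2 fold change and CCNE1 the highest. CCNE2 was at 27.96, 24.2, 20.3 and 20.4 CPM in the KO, with a log2 fold change of -0.34 (SE 0.11, adjusted p = 0.0294), and did not pass without normoxia replicate 3 or 4 or KO replicate 3 or 4 (up to 0.0834). In the annotation 37.05% of its exon length lies opposite INTS8, whose log2 fold change was 0.03 (adjusted p = 0.799). CCNE1 was at 14.6, 13.1, 13.2 and 13.8 CPM in the KO, with a log2 fold change of 0.15 (SE 0.06, adjusted p = 0.108). E2F1 fell by 8.30% with no overlap (adjusted p = 0.0440), but not past the threshold in 3 alternatives or in 6 of the 8 fits with 1 library left out, all but those without normoxia replicate 1 or KO replicate 2 (up to 0.110). E2F2 had a log2 fold change of -0.07 (SE 0.11, adjusted p = 0.705).

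SLBP (chr4:1692800-1712555) was the only chromatin gene of the 4 to pass. It was at 131, 127, 123 and 129 CPM in the KO, below every normoxia library, and fell by 18.9% (log2 fold change -0.30, SE 0.04, adjusted p = 0.000298). CHAF1A was at 114, 116, 125 and 115 CPM in normoxia and 108, 120.5, 118 and 119 CPM in the KO. Its log2 fold change was -0.02 (SE 0.05, adjusted p = 0.840), and those of CHAF1B (-0.10, adjusted p = 0.202) and UHRF1 (-0.08, adjusted p = 0.216) did not pass either.

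**Figure D5:**
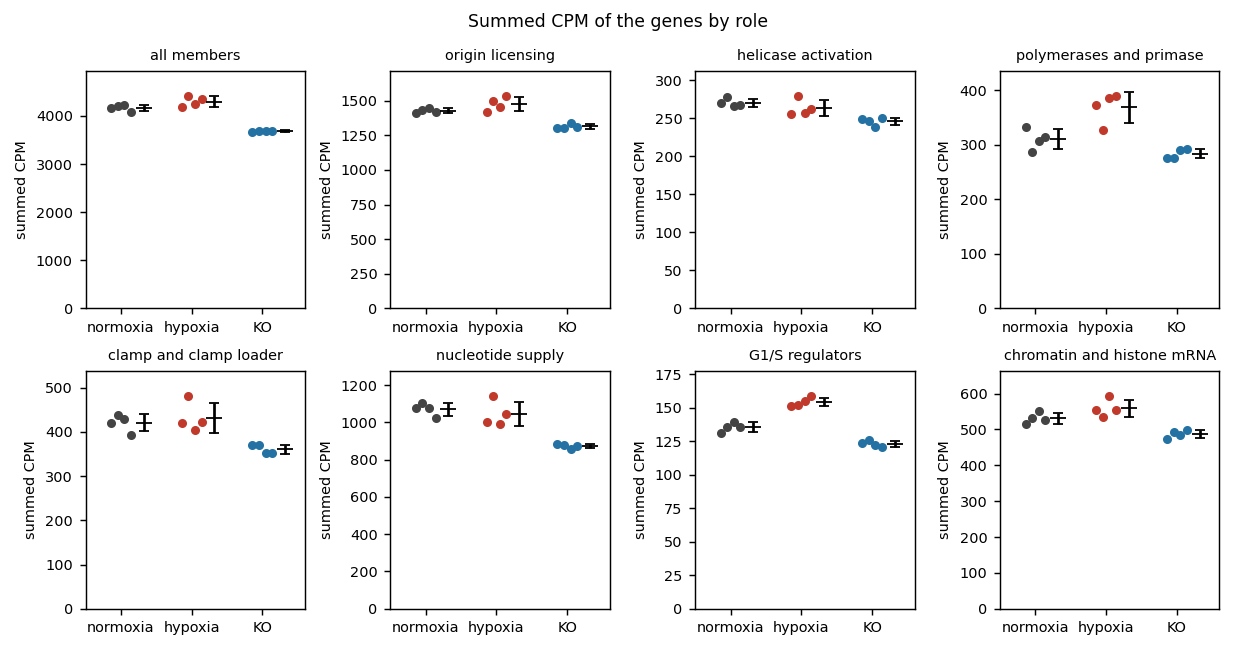
Summed CPM of the genes of each role per library (points), with the mean and SD of the 4 libraries of a group beside them; axes start at 0. For all 38 genes together the KO libraries (3674 to 3697 CPM) are below all WT libraries.

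With the GC trend removed, 26 of 38 were lower in the KO and 0 higher, with a median of -0.17, against 0.0002 over all genes. The share of all genes that was lower in that fit is not given here. Fibroblast markers (COL1A1, PDGFRB) were also higher in the KO. Endothelial markers summed to between 7.95 and 10.2 CPM in normoxia and between 10.2 and 11.1 CPM in the KO, and leukocyte markers to between 0.775 and 0.962 CPM and between 0.912 and 1.47 CPM, with 1 gene of each list higher at the adjusted p, PECAM1 (5.51 CPM in the KO) and CD14 (0.939 CPM); CDH5 and CD3E, defining markers of these cells, averaged 0.0157 and 0 CPM in the KO. Of the 3 markers tested in each of these 2 lists, 2 endothelial and 1 leukocyte marker had a log2 fold change below zero. Lowest were VWF (-0.94) and PTPRC (-1.59), and 0 in either list were lower at the adjusted p. The part of the fibroblast, endothelial and leukocyte markers in the decreases was not tested.

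The genes that fell in the KO included genes with and without the E2F letters. In the KO, 12 of 19 genes with a match fell (median log2 fold change -0.17) and 9 of 15 without one did (-0.24). Under hypoxia, the 3 genes that rose, CDT1, E2F1 and POLE, carry a match, as does RFC3, which fell, while ORC1 does not; the medians were 0.08 with a match and 0.02 without. The 4 genes with no promoter entry are in neither set, and the difference between the sets was not tested.

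KO cells in normoxia and WT cells under hypoxia were compared with each other directly, since the other comparisons share the normoxia libraries. PRIM1 and POLA2 were called lower in the KO, 2 of 38 (5.26%), against 7.88% of 21158 genes tested, and 0 were called higher, against 7.08%. The sum of POLA2 and the gene that shares its exons was 42.3 ± 6.90 CPM under hypoxia and 35.1 ± 3.80 CPM in the KO. The groups overlapped in that sum, and how reads were divided was not tested. At the adjusted p alone 24 of 38 were lower (63.2%), against 17.8% of all genes, and 1 (ORC1) was higher, against 17.1%. The median log2 fold change was -0.22, and -0.02 over all genes. Of the 22 genes that fell in the KO, 18 were also lower in the KO than under hypoxia. PRIM1 had a log2 fold change of -0.53 (SE 0.08, adjusted p = 0.000525) and POLA2 of -0.76 (SE 0.17, adjusted p = 0.00527), and neither overlapped. Without hypoxia replicate 2 PRIM1 stood at -0.45 and was no longer past the fold of 0.5. ORC1 had one of 0.30 (SE 0.06, adjusted p = 0.00193), TK1 of -0.41 (SE 0.05, adjusted p = 3.9e-05), RFC4 of -0.43 (SE 0.06, adjusted p = 0.000287), E2F1 of -0.42 (SE 0.05, adjusted p = 8.0e-05) and CDT1 of -0.33 (SE 0.05, adjusted p = 0.000416), the last of which did not pass with the GC trend removed (-0.14, adjusted p = 0.0841). RFC3, RFC5, CCNE2 and GINS1, which were lower in the KO than in normoxia, did not differ past the threshold from hypoxia. GINS1 did in 6 of the 11 alternatives. With the GC trend removed, RFC3 (-0.17, adjusted p = 0.0125) and CCNE2 (-0.24, adjusted p = 0.0470) were also past it. In the main fit the 95% intervals were -0.20 to 0.04 for RFC3 and -0.27 to -0.03 for GINS1. Leaving out 1 library gave between 18 and 23 lower genes and ORC1 higher throughout: GINS3, CHAF1B, UHRF1, MCM3, MCM7, RRM1, MCM6, GINS2 and TYMS each lost the threshold without at least 1 library, KO replicate 4 for 6 of these 9.

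The other genes of the pathway give the setting. Of 111 further tested genes of replication, nucleotide supply, G1/S control and replication-coupled chromatin, 58 fell and 11 rose in the KO at the adjusted p alone, against 15.4% and 14.9% of all genes; the median of their log2 fold changes was -0.16. Under hypoxia 34 fell and 14 rose, against 23.5% of all genes in either direction, with a median of -0.09. The counts in the groups of these genes below stand beside the same shares. In nucleotide supply 17 of 21 fell in the KO and 0 rose, and DUT, which clears dUTP, was called, from 100.6 ± 7.19 CPM to 68.5 ± 3.67 CPM (log2 fold change -0.56, SE 0.06, adjusted p = 1.5e-05). Under hypoxia 7 of these 21 fell and 1 rose, with RRM2B (the p53-inducible small subunit of the reductase) lowest at -0.47 and CAD, the first enzyme of pyrimidine synthesis, highest at 0.24.

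Among 43 other genes of the replication machinery, 21 fell and 3 rose in the KO, and 11 fell and 8 rose under hypoxia. POLD4, the smallest subunit of polymerase delta, was called higher in both, at 18.7 ± 2.87 CPM in normoxia, 27.4 ± 2.91 CPM under hypoxia and 29.5 ± 2.61 CPM in the KO (log2 fold change 0.54, adjusted p = 0.00637, and 0.66, adjusted p = 0.000533). Under hypoxia its call was lost without normoxia replicate 1 or hypoxia replicate 2 (down to 0.43) and with the GC trend removed (0.38). RPA3, a subunit of the single-strand binding protein RPA, was called lower in the KO, from 26.7 ± 2.603 CPM to 18.8 ± 0.691 CPM (log2 fold change -0.50, adjusted p = 0.000214), close to the fold limit, which it missed without normoxia replicate 2 or 3 or KO replicate 4 (to -0.47) and with upper-quartile normalization, a replicate block, the GC trend removed or counts divided by 4. DBF4, the activator of the kinase CDC7, was called lower under hypoxia, from 49.5 ± 3.03 CPM to 35.0 ± 3.22 CPM (log2 fold change -0.51, adjusted p = 0.000751), and missed the fold without normoxia replicate 1 or 2 or hypoxia replicate 3 or 4 (to -0.47), with the GC trend removed (-0.35), and with upper-quartile normalization, at least 10 counts per library, counts divided by 4 or protein-coding genes alone.

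Of 33 other G1/S regulators tested, 17 fell and 8 rose in the KO. SKP2, the F-box protein that marks CDKN1B for degradation, was called lower, from 66.0 ± 1.66 CPM to 25.4 ± 1.14 CPM (log2 fold change -1.38, SE 0.05, adjusted p = 3.4e-09). CDKN1A, the CDK inhibitor p21, was called higher, from 56.8 ± 3.16 CPM to 90.8 ± 2.65 CPM (log2 fold change 0.68, SE 0.05, adjusted p = 6.1e-07). Under hypoxia 13 fell and 3 rose, none of them called, from FBXW7 (-0.43) to CDKN1A (0.37). In replication-coupled chromatin 3 of 14 fell in the KO, with the histone chaperone ASF1B lowest at -0.42 and USP37 highest at 0.11. Under hypoxia 3 of 14 fell and 2 rose, and the chaperone ASF1A was called lower, at -0.55, which missed the fold without hypoxia replicate 4 (-0.497), with upper-quartile normalization and with the GC trend removed (-0.39).

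Of 32 genes of G2/M and mitosis measured in the same libraries, 22 fell and 1 rose in the KO (median log2 fold change -0.16), against 15.4% and 14.9% of all genes, from MAD2L1 at -0.42 to CDC25B at 0.16. Under hypoxia 19 fell and 0 rose (median -0.25), against 23.5% of all genes in either direction, from TTK at -0.47 to HMMR at 0.09, where 0 of 32 were higher at an unadjusted p under 0.05. Between KO and hypoxia 11 of 32 were higher in the KO and 4 lower, against 17.1% and 17.8% of all genes. Their median was 0.07, while the median of the 38 replication genes was -0.22.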

How the data were processed

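The authors cleaned paired-end reads of adapters, poly-N and low quality, aligned them with Hisat2, quantified genes with StringTie and compared groups with DESeq2, by the study's methods. The submitters' processing notes name HISAT2, SAMtools and featureCounts, and the genome build is not given in the sources used here. The deposited values were treated like expected counts, which is an assumption since the sources name different counting tools; they are whole numbers, not scaled to library size, and more genes had the value 4 than 3 or 5 in every library. By the methods, extraction was in biological triplicates and the test used 2 biological replicates of each condition, while 4 libraries per group were used here, and the labels name another extraction reagent and library kit than the methods.

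Each pair of groups was fitted with edgeR 4.0.16 in R 4.3.3 (TMM normalization, filterByExpr, glmQLFit and glmQLFTest) with Benjamini-Hochberg adjustment over all genes tested. Genes were called at an adjusted p under 0.05 where the log2 fold change was also 0.5 or more in size; "rose" and "fell" refer to the adjusted p alone. Standard errors come from the quasi-likelihood F statistic. CPM use the TMM-scaled sizes of all 12 libraries. Lengths, GC content and coordinates are those of GENCODE 29 on GRCh38, in which 58396 of the 60664 identifiers were found. No pair of replicates agreed within sampling noise (chi-square per degree of freedom between 14.0 and 97.6).

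Simulated data for the hypoxia comparison held 21154 genes, of which 66, 65 and 64 were changed by 0.3, 0.6 and 1 (log2). Of those with a mean of at least 500 counts, edgeR at the adjusted p alone recovered 10.8%, 75.8% and 100%. DESeq2 recovered 35.1%, 93.9% and 100%. In the hypoxia comparison itself 23.5% of the 21776 genes tested passed the adjusted p, a far larger share than was changed in the simulation. What share of changes of 0.3 edgeR missed there was not tested. Alternatives were DESeq2 1.42.0, limma-voom (limma 3.58.1), a single fit of all 12 libraries, fold limits of 0.25 and 1, a filter of at least 10 counts in each library or none, upper-quartile or RLE normalization, leaving out each library in turn, and a replicate block. Chosen after seeing the data were a fit to protein-coding genes alone, a fit to counts divided by 4, and removal of a GC trend (lowess, span 0.3). The 38 genes and the other lists were chosen with earlier results of these data known. All 38 are named, with values per library for genes called and for the lowest and highest log2 fold change of each role; of other lists the genes called are named, otherwise the lowest and the highest. PRIM1, TK1 and the other genes given for the direct comparison of KO with hypoxia were named after their values were seen.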

Additional observations from a re-analysis of the deposited data

Results flagged for a closer look

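In 6 of 114 sets of 4 libraries (38 genes in 3 groups), 1 library stood so far from the rest that its gap to the nearest took more of the whole range than Dixon's critical value for 4 values; chance gives about 1 in 20, or 5.7 of 114. These were ORC6 in hypoxia replicate 2 (0.885), MCM4 in KO replicate 1 (0.846), MCM10 in normoxia replicate 1 (0.956), CHAF1A in normoxia replicate 3 (0.835) and in KO replicate 1 (0.834), and CHAF1B in hypoxia replicate 1 (0.977). None of these genes passed the adjusted p under hypoxia or in the KO.

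POLA2 and PRIM1 differed between CCAR2 KO and hypoxia in the direct test, by -0.76 and -0.53 on the log2 scale, with both genes above normoxia on average under hypoxia and below it in the KO. Without hypoxia replicate 2 the difference of PRIM1 was -0.45, and for POLA2 it was between -0.90 and -0.59 with each library left out. How reads were divided between POLA2 and the gene that shares its exons was not tested.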

How the results depend on the processing

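Under hypoxia 5 genes in place of 3 were higher at the adjusted p alone in some alternatives, with MCM3 and CCNE1 added. These were DESeq2, upper-quartile normalization, at least 10 counts per library, all 12 libraries in 1 fit, protein-coding genes alone and counts divided by 4. In place of 2, 3 were lower with DESeq2 (CCNE2 added) and 4 with the GC trend removed. With 1 library left out, 2 to 4 were higher and 2 to 8 lower. At a fold of 0.25, 2 were called higher and 1 lower. The median of 0.02 was 0.068 with upper-quartile normalization, where that of all genes was 0.06, -0.0042 with no filter, and between -0.0010 and 0.037 with 1 library left out. In the KO, 12 were called lower at a fold of 0.25, and 0 to 1 at 0.5 with 1 library left out (POLA2, without normoxia replicate 1 or 2 or KO replicate 4). The number lower at the adjusted p alone was between 18 and 26 under the alternatives and between 17 and 23 with 1 library left out. The median of -0.17 was -0.15 with upper-quartile normalization, -0.20 with no filter and between -0.20 and -0.16 with 1 library left out. Between KO and hypoxia, 1 was called higher and 13 lower at a fold of 0.25, 0 at a fold of 1, and 1 to 2 lower with 1 library left out, with medians between -0.23 and -0.19. The summed CPM of the KO was 3674 with upper-quartile normalization against 3688. The shares of all genes under each alternative are not given here, and the cause of these shifts was not tested.

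The labels give the groups the same replicate numbers, but not every same-numbered pair deviated together: the correlation with normoxia was over 0.1 for hypoxia replicates 1 and 2 (0.16 and 0.24) and KO replicate 1 (0.13), and between -0.08 and 0.05 for the other 5 pairs. A shared source of the numbers was therefore not taken as shown. With a replicate block 4 genes were higher and 2 lower under hypoxia, 24 lower in the KO and 25 lower in the KO than under hypoxia; RPA3 missed the fold of 0.5.

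Depth limits E2F2 most, with 205 counts in 1 library.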

Other observations

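Other genes share exon sequence with some of the 38. In the annotation 22.7% of the exon length of MCM2 and 21.2% of that of GINS4 lie opposite antisense genes, and 20.2% of RRM2 is shared on the same strand with a gene not analysed here. Processed pseudogenes of PCNA, RFC3, RFC5, RRM2 and TYMS held at most 0.0074% of the counts of their parent genes.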
